A study of Bos taurus with 12 samples.

Results

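The solute carriers (SLC genes) described here were chosen by their signal in these same arrays: all probe sets of a bovine Affymetrix array whose platform symbol begins with SLC and a digit, apart from SLC2A1 and SLC2A3, with a mean log2(signal + 16) above 6, a signal of 48, in at least 1 of the 6 groups. The array holds 250 probe sets with such a symbol, for 177 genes, among 24128 in all. Of these, 130 probe sets for 102 genes passed the limit and 120 did not, which left 75 genes with no probe set above it. The limit was passed in all 6 groups by 80 probe sets and in 1 group only by 13. That single group was a granulosa group for 12 of the 13, large granulosa for 6 of them, so such probe sets had to read higher there and their differences follow in part from the choice. Nearest above the limit, with highest group means of 6.03, 6.05 and 6.06, were SLC37A1, SLC4A11 and SLC4A3, and nearest below it were other probe sets of SLC35A2 and SLC46A1, both at 5.99, and SLC22A23 at 5.93. Where a gene had several probe sets, that with the higher mean signal over all arrays is called the brighter; this is not a comparison of transcript levels. All differences below are on the log2(signal + 16) scale, with ± the standard error of the limma fit and 2 arrays per group.

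Solute carriers are membrane proteins that move sugars, amino acids, metals, nucleosides and other small molecules across cell and organelle membranes, named by family number with the prefix SLC. Most use a gradient of sodium, protons or a second solute and not ATP. Some sit in the plasma membrane and set what a cell takes up or releases, others in mitochondria, lysosomes, the endoplasmic reticulum (ER) or the Golgi. In the ovarian follicle the granulosa layer has no blood vessels of its own and lies inside a basement membrane, so its nutrients pass through the vascularised theca layer outside it.

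RNA came from ovarian follicles of cycling heifers in the follicular stage, and the labels name no treatment. Granulosa and theca cells of small (up to 5 mm), medium (5 to 10 mm) and large (over 10 mm) follicles gave 6 groups of 2 arrays. Each sample was a pool, of cells from 20 to 40 follicles in the extract protocol and of 20 to 40 ovaries of 6 to 10 animals in the design text. Pooling hides the spread between animals, and whether replicate pools had animals in common is not stated. The titles give the cell layer; the description field names theca for all 12 samples. The questions were how the layers differ in their carriers and how carriers change with follicle size.

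The theca markers separated the arrays by their titles, and the granulosa markers did so on all but 1 theca array. The summed signal of 10 granulosa markers was 17327 to 28606 on granulosa arrays and 5058 to 18821 on theca arrays, where theca large replicate 2 (18821) lay above granulosa small replicate 1 (17327) and granulosa large replicate 2 (17408). Such a sum is weighted to its brightest markers. From small to large theca 2 of the 10 were called higher in limma and 0 lower, with a median change of -0.02. For 7 theca markers it was 2057 to 3532 in granulosa and 19291 to 31428 in theca. A list of 12 myeloid markers summed to 626 to 1877 in small and medium granulosa, 17614 and 6724 in large granulosa, and 1589 to 4419 in theca. A pair of arrays stood apart: theca small replicate 1, with a GAPDH signal 8.36 times higher at the 3' than the 5' end against 0.98 to 1.30 elsewhere, and granulosa large replicate 1, with the highest median signal (48.8 against 33.7 to 39.2) and an actin signal 21.0 times higher at the 3' than the 5' end, against 2.39 to 11.2 elsewhere. Replicates correlated over the 130 probe sets with Spearman coefficients from 0.779 in small theca to 0.950 in medium theca. In bulk samples, more cells of a type and more RNA per cell cannot be told apart.

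Granulosa cells read higher than theca cells for more solute carriers than the reverse. Over all sizes 38 of the 130 probe sets passed an adjusted p of 0.05, 34 higher and 4 lower in granulosa, with a median difference of 0.33 on the log2 scale and 87 differences above 0. Among all 17236 probe sets tested, 24.8% were called, 13.6% higher and 11.2% lower, with a median of 0.10; among those as bright as the carriers the share called was 28.6% and the median 0.09. The share of carriers called, 29.2%, therefore lay near the background, while the direction of the calls was 89.5% higher against 54.7% of all calls. After centring each array on its median, 27 carriers were called higher and 5 lower, and of all calls 44.1% were higher; with quantile normalisation the carriers split 33 and 4. With members taken by their mean over all 12 arrays, which treats the layers alike, 31 of 106 were called, 27 higher and 4 lower. Leaving out single arrays gave 24 to 44 calls: 24 without theca medium replicate 2 or theca large replicate 2 and 25 without granulosa small replicate 2. Of the 38 calls, 21 were kept whichever single array was left out.

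**Figure D1:**
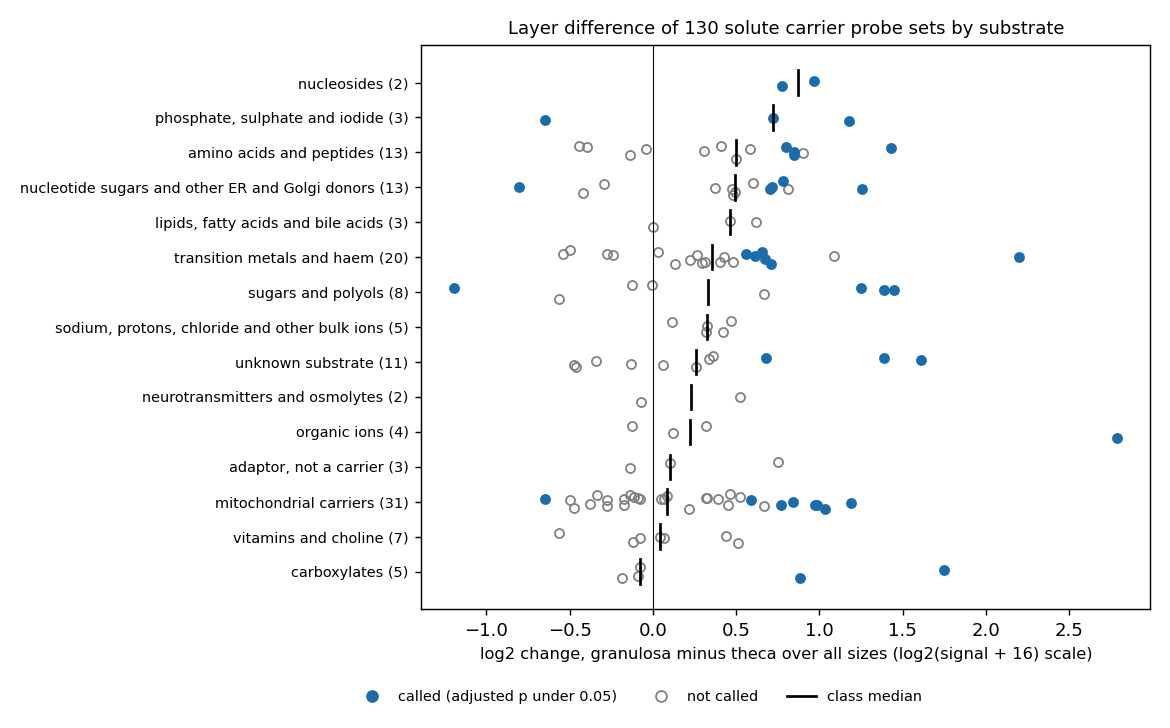
Log2 difference between granulosa and theca over all sizes (x axis, log2(signal + 16) scale) for each of the 130 carrier probe sets, by substrate class (rows, with the number of probe sets in brackets). Filled points passed the adjusted p of 0.05 and bars mark class medians; SLC17A5 (2.79) and SLC39A8 (2.20) lie farthest right, SLC5A11 (-1.19) farthest left.

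By substrate, calls were spread over many classes. Amino acid carriers had 4 higher and 0 lower among 13 probe sets, transition metal carriers 6 and 0 among 20, nucleoside carriers 2 and 0 among 2, carboxylate carriers 2 and 0 among 5, and sugar carriers 3 and 1 among 8. Carriers of nucleotide sugars and other ER and Golgi donors had 4 and 1 among 13, and phosphate and sulphate carriers 2 and 1 among 3. Mitochondrial carriers, of the SLC25 family but for SLC8B1, had 7 and 1 among 31. Of all tested probe sets 13.6% were called higher and 11.2% lower. Both carboxylate calls were of SLC16A3, and the 3 higher sugar calls were of 2 genes. The called SLC25A15, SLC29A2, SLC30A2 and dimmer SLC2A5 probe sets passed the limit in 1 granulosa group only, so these counts follow in part from the choice. Limma made 0 calls among the 7 vitamin and choline, 5 bulk ion, 3 lipid and 2 neurotransmitter probe sets. At an unadjusted p under 0.05, which 38.7% of all tested probe sets had, 1 probe set of each of these classes was higher, and 1 vitamin carrier was lower; the class medians ran from 0.04 to 0.46. The probe sets not called ran from -0.57 (SLC37A1) to 1.09 (SLC11A1). Of 24 genes with several probe sets above the limit, 13 agreed in the sign of the layer difference and 11 did not, and none of those 11 had a call.

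The largest layer difference belonged to SLC17A5 (sialin), which exports sialic acid from lysosomes. Its signal in granulosa was 3036 and 2765 in small, 4472 and 1322 in medium and 1666 and 4546 in large, and in theca 117 and 609 in small, 544 and 238 in medium and 320.0 and 890.1 in large. Every granulosa array lay above every theca array, with a difference of 2.79 ± 0.43 (adjusted p = 0.000446), a 6.91-fold ratio. Replicates differed widely within groups, and the highest theca reading was on theca large replicate 2, the theca array with the highest granulosa marker sum (18821). The part of granulosa cells in that reading was not tested. SLC35A1, which carries activated sialic acid into the Golgi, was lower in granulosa by a log2 difference of -0.81 ± 0.27 (adjusted p = 0.0411); its granulosa signals of 89.1 to 297 (median 194) overlapped the theca signals of 198 to 403 (median 325). The SLC35A1 call was kept in 3 of 12 fits that left out 1 array, and without both arrays that stand apart its adjusted p was 0.07.

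Among sugar carriers the lowest adjusted p belonged to SLC2A5, the fructose transporter GLUT5. Its brighter probe set gave 35.6 and 21.8 in small, 76.3 and 64.6 in medium and 251 and 244 in large granulosa and 14.5 and 15.2 in small, 17.1 and 18.2 in medium and 33.9 and 29.1 in large theca. The order small, medium, large held in granulosa with no overlap between sizes, and theca stayed at or below 33.9, so only small granulosa overlapped theca. Over all sizes the layer difference was 1.45 ± 0.17 (adjusted p = 4.84e-05), and 1.39 ± 0.19 (adjusted p = 0.000151) by the dimmer probe set, which passed the limit in large granulosa only. Another SLC2A5 probe set did not reach the limit.

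SLC37A4, the ER carrier of glucose 6-phosphate, read 49.2 to 66.6 (median 61.2) in granulosa and 2.00 to 38.6 (median 17.7) in theca. The layers did not overlap, and the difference was 1.25 ± 0.28 (adjusted p = 0.00516); the granulosa values were close together and the theca values scattered near the bottom of the scale. The opposite pattern came from SLC5A11, a sodium-coupled carrier of myo-inositol, with 6.90 and 8.30 in small, 44.0 and 70.5 in medium and 42.9 and 18.5 in large granulosa against 82.4 and 62.1 in small, 77.5 and 67.7 in medium and 104 and 100.1 in large theca. It was lower in granulosa by a log2 difference of -1.19 ± 0.20 (adjusted p = 0.000721), lowest in small granulosa, where both arrays were far below all theca arrays, while medium replicate 2 reached the theca range. SLC2A8, an intracellular glucose carrier, differed by -0.01 ± 0.26 (adjusted p = 0.986), which did not pass, nor did SLC2A6, a lysosomal one, at -0.13 ± 0.19 (adjusted p = 0.655).

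Carboxylate carriers were split. SLC16A3 (MCT4), which exports lactate, read 88.2 and 191 in small, 103 and 231 in medium and 270.1 and 174 in large granulosa and 53.2 and 16.2 in small, 45.4 and 21.0 in medium and 55.1 and 50.6 in large theca, without overlap. The difference was 1.75 ± 0.28 (adjusted p = 0.000517), and 0.88 ± 0.27 (adjusted p = 0.0286) by the dimmer probe set. SLC16A1 (MCT1), the related carrier for uptake and release, read 117 to 183 (median 160.2) in granulosa and 137 to 204 (median 148) in theca, overlapping throughout, with a difference of -0.08 ± 0.18 (adjusted p = 0.78). LDHA, the lactate dehydrogenase subunit that favours lactate, was higher in granulosa by 1.39 (adjusted p = 0.000265), with 1420 to 3858 on granulosa and 548 to 1177 on theca arrays.

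Among amino acid carriers, SLC43A2 (LAT4, for leucine and other large neutral amino acids) stood out with 409.6 and 411 in small, 189 and 262 in medium and 227 and 231 in large granulosa against 111 and 90.1 in small, 107 and 67.7 in medium and 99.8 and 85.7 in large theca. The lowest granulosa array (189) lay well above the highest theca array (111), and the difference was 1.43 ± 0.19 (adjusted p = 9.69e-05). SLC66A1, which exports cationic amino acids from lysosomes, also had no overlap, 171 to 327 (median 222) against 91.1 to 158 (median 135), and differed by 0.85 ± 0.21 (adjusted p = 0.0107). SLC7A1 (CAT1), the arginine and lysine carrier of the plasma membrane, differed by 0.85 ± 0.20 (adjusted p = 0.00811); its large granulosa arrays (98.0 and 125) overlapped the highest theca array (135). SLC7A7, which exchanges cationic for neutral amino acids, passed narrowly (0.80 ± 0.28, adjusted p = 0.0472), with 719 and 242 in large granulosa and 105.5 to 140.3 in the other granulosa groups. Its call was kept in 2 of 12 fits that left out 1 array and was lost in the other 10.

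The glutamine carriers SLC38A2, by its brighter probe set, and SLC1A5 had differences below 0 without a call. SLC38A7, of the same family as SLC38A2, was not called either. It read 113 to 173 (median 146) in granulosa and 58.3 to 150 (median 85.45) in theca, with overlap. SLC38A2 (SNAT2) gave -0.40 ± 0.20 (adjusted p = 0.157) by its brighter probe set, and SLC1A5 (ASCT2) -0.44 ± 0.24 (adjusted p = 0.189). A second SLC38A2 probe set gave 0.90 ± 0.51 (adjusted p = 0.212), with 6.20 on theca small replicate 1 and 361 on replicate 2, so the probe sets disagreed in sign and the array with the uneven GAPDH ends was the lowest. SLC7A5 (LAT1) differed by -0.04 ± 0.32 (adjusted p = 0.936) and its partner chain SLC3A2 by 0.31 ± 0.20 (adjusted p = 0.291).

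Metal carriers were led by SLC39A8 (ZIP8), which takes up zinc and manganese. Its signals were 477 and 234 in small, 944 and 299 in medium and 599 and 1123 in large granulosa and 69.9 and 77.6 in small, 102 and 31.7 in medium and 111 and 475 in large theca. All theca arrays but large replicate 2 (475) lay below all granulosa arrays, and the difference was 2.20 ± 0.38 (adjusted p = 0.00101), a 4.58-fold ratio. That theca array is again the one with the highest granulosa marker sum, and its part in the overlap was not tested.

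Smaller layer differences were called for SLC39A1, another plasma membrane zinc carrier (0.67 ± 0.20, adjusted p = 0.0268), for the copper carriers SLC31A1 (0.56 ± 0.19, adjusted p = 0.0421) and SLC31A2 (0.66 ± 0.23, adjusted p = 0.0472), for SLC30A2, a zinc exporter into vesicles (0.61 ± 0.19, adjusted p = 0.0276), and for the dimmer SLC39A9 probe set (0.71 ± 0.20, adjusted p = 0.0179). Of these 5, SLC31A1, SLC31A2, SLC30A2 and SLC39A9 were not called without both arrays that stand apart (adjusted p = 0.11, 0.146, 0.0754 and 0.0674). With 1 array left out at a time, SLC31A1 kept its call in 3 and SLC31A2 in 2 of 12 fits. SLC30A2 passed the limit in small granulosa only. The brighter SLC39A9 probe set gave 0.40 ± 0.18 (adjusted p = 0.118). SLC31A1 granulosa arrays read 316 to 505 (median 410.0) and theca arrays 215 to 329 (median 279), a slight overlap. SLC39A6 and SLC39A14, further zinc carriers, differed by 0.03 ± 0.24 (adjusted p = 0.939) and 0.13 ± 0.21 (adjusted p = 0.678). Of the metal-binding proteins on the partner list, the metallothioneins MT2A (1.06, adjusted p = 0.00658) and MT1A (0.95, adjusted p = 0.0131) were higher in granulosa and transferrin was lower (-1.11, adjusted p = 0.0365).

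Both nucleoside carriers above the limit were higher in granulosa, though the SLC29A1 call was lost with an offset of 1 and after median centring. SLC29A1 (ENT1) read 823 and 1086 in small, 1135 and 1803 in medium and 864 and 1861 in large granulosa and 624 and 433 in small, 977 and 567 in medium and 745 and 994 in large theca, with overlap, and differed by 0.77 ± 0.25 (adjusted p = 0.034). SLC29A2 (ENT2) was dim, 36.4 to 56.5 (median 46.4) against 6.00 to 24.9 (median 18.5), without overlap, and differed by 0.97 ± 0.19 (adjusted p = 0.00256); it passed the limit in small granulosa only. The phosphate carrier SLC20A1 read 288 to 421 (median 324) in granulosa and 179 to 222 (median 189.5) in theca, without overlap, and differed by 0.72 ± 0.17 (adjusted p = 0.00753). Its relative SLC20A2 differed by 1.18 ± 0.29 (adjusted p = 0.00962), and SLC26A11, a sulphate carrier, was lower by a log2 difference of -0.65 ± 0.19 (adjusted p = 0.0231).

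**Figure D2:**
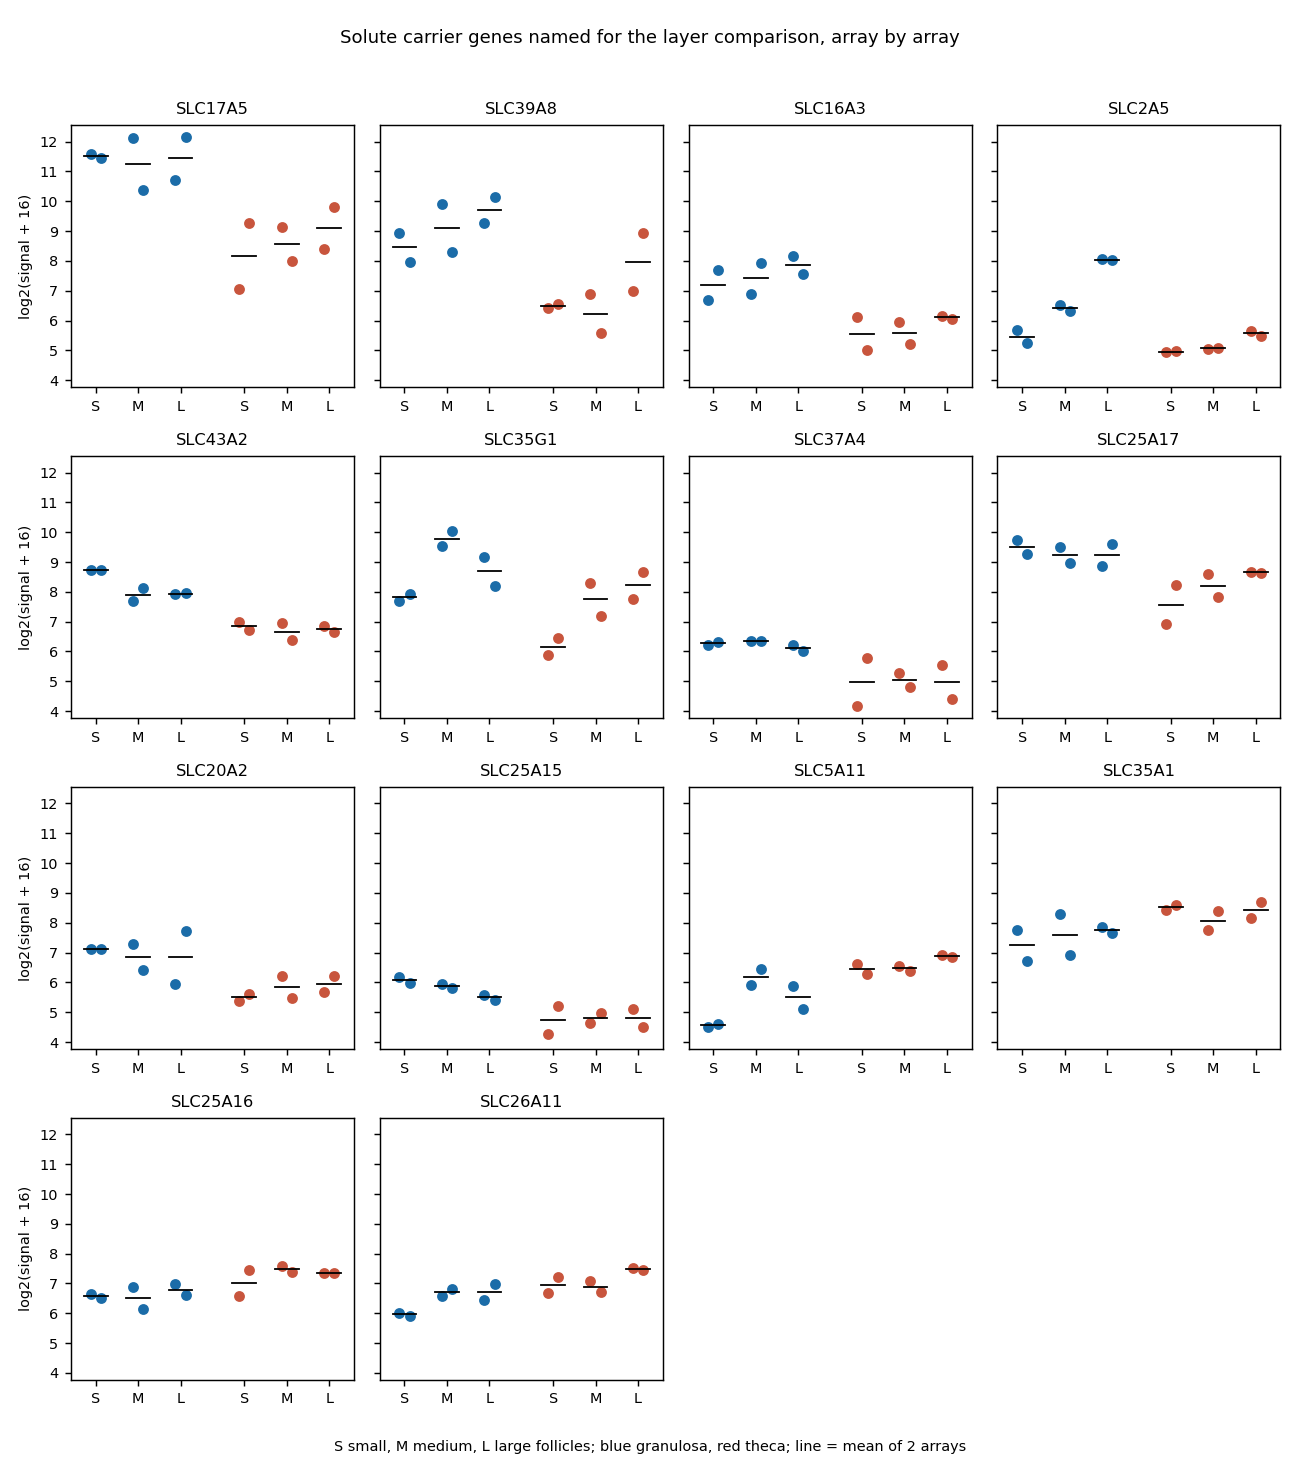
Log2(signal + 16) of 14 carriers on each of the 12 arrays (y axis), granulosa in blue and theca in red by follicle size, with lines at the mean of 2 arrays. The granulosa and theca points of SLC17A5, SLC43A2 and SLC16A3 do not overlap, SLC5A11, SLC35A1, SLC25A16 and SLC26A11 are lower in granulosa, and SLC2A5 climbs with size in granulosa.

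In the mitochondrial carrier family the ADP/ATP and phosphate carriers with the highest signals did not pass the test. The ADP/ATP carrier SLC25A6 read 4825 to 9201 (median 6394) in granulosa and 6507 to 8502 (median 7147) in theca, a difference of -0.18 ± 0.18 (adjusted p = 0.497). For the phosphate carrier SLC25A3 the difference was -0.28 ± 0.19 (adjusted p = 0.314). Called differences lay in other members. SLC25A17, a family member of the peroxisome membrane, gave 843 and 607 in small, 717 and 482 in medium and 454 and 769.5 in large granulosa and 104 and 282 in small, 368 and 209 in medium and 394 and 385 in large theca, no overlap, and 1.19 ± 0.26 (adjusted p = 0.00468). The iron carrier mitoferrin 2, SLC25A28, differed by 0.99 ± 0.23 (adjusted p = 0.00698) and the ornithine carrier SLC25A15, dim and above the limit in small granulosa only, by 1.03 ± 0.21 (adjusted p = 0.00312). The S-adenosylmethionine carrier SLC25A26 was called by its dimmer probe set (0.97 ± 0.24, adjusted p = 0.00849) and not by its brighter one (0.46 ± 0.19, adjusted p = 0.0937). SLC25A33, for pyrimidine nucleotides, was called by both (0.59 ± 0.18, adjusted p = 0.0287 and 0.84 ± 0.20, adjusted p = 0.00668), and SLC25A29, for basic amino acids, by its single one (0.77 ± 0.23, adjusted p = 0.0255). The family's 1 lower call was SLC25A16, by a log2 difference of -0.65 ± 0.21 (adjusted p = 0.0377). This SLC25A16 call was lost with an offset of 1. It was kept in 3 of 12 fits that left out 1 array, with differences from -0.795 to -0.504.

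Carriers that bring donors into the ER and Golgi were called for SLC35A4 (0.78 ± 0.21, adjusted p = 0.0156 and 1.25 ± 0.23, adjusted p = 0.00133), for the UDP-galactose carrier SLC35A2 (0.72 ± 0.21, adjusted p = 0.0211) and for SLC35B1, which exchanges ATP and ADP across the ER membrane (0.70 ± 0.22, adjusted p = 0.0301). The SLC35B1 call was lost with an offset of 1 and after median centring. The carrier of the sulphate donor, SLC35B2, differed by 0.48 ± 0.22 (adjusted p = 0.121) and the acetyl-CoA carrier SLC33A1 by 0.49 ± 0.21 (adjusted p = 0.0991). Theca small replicate 1 gave low readings for several of these probe sets, such as 4.90 for the UDP-N-acetylglucosamine carrier SLC35A3 and 1.20 for a dim SLC35A5 probe set, against 95.1 and 40.5 on its replicate. Without that array and granulosa large replicate 1, 31 of the 38 layer calls were kept; the 7 lost were SLC31A1, SLC31A2, SLC30A2, SLC39A9, SLC7A7, SLC35A1 and the dimmer SLC16A3 probe set.

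Among carriers counted here as of unknown substrate, SLC35G1 was higher in granulosa by both probe sets. The brighter read 193 and 227 in small, 727 and 1032 in medium and 565 and 280.2 in large granulosa and 43.1 and 71.0 in small, 299.9 and 130.1 in medium and 203 and 390.3 in large theca, highest in medium granulosa, and differed by 1.39 ± 0.26 (adjusted p = 0.00199). Its dimmer probe set differed by 1.61 ± 0.26 (adjusted p = 0.000658). SLC66A2 also passed (0.68 ± 0.19, adjusted p = 0.0168), and SLC35F5 and SLC35E2B gave -0.48 ± 0.24 (adjusted p = 0.156) and 0.06 ± 0.21 (adjusted p = 0.844).

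The other classes are given by their members with the highest mean signal. For vitamins, the riboflavin carrier SLC52A2 differed by -0.56 ± 0.25 (adjusted p = 0.111) and the choline carrier-like protein SLC44A2 by -0.08 ± 0.22 (adjusted p = 0.81); other SLC52A2 probe sets were of the opposite sign. For bulk ions, all 5 differences were above 0, between 0.12 and 0.47, among them the potassium-chloride carrier SLC12A4 (0.12 ± 0.19, adjusted p = 0.688) and the anion exchanger SLC4A2 (0.42 ± 0.25, adjusted p = 0.234). The fatty acid carriers SLC27A1 and SLC27A4 gave 0.62 ± 0.23 (adjusted p = 0.0624) and 0.46 ± 0.24 (adjusted p = 0.174). The dimmer SLC27A1 probe set gave a difference of 0. The creatine carrier SLC6A8 gave -0.07 ± 0.24 (adjusted p = 0.856) by its brighter probe set and 0.52 ± 0.19 (adjusted p = 0.0618) by its dimmer. GATM, the first enzyme of creatine synthesis, was higher in granulosa (1.91, adjusted p = 0.000805). It is also on the list of granulosa markers, so nothing about creatine is read from its difference. The creatine kinase CKB was lower in granulosa over all sizes (-0.86, adjusted p = 0.0179), though not in large follicles (0.51, adjusted p = 0.51). Among organic ion carriers other than SLC17A5, SLC22A17 and SLC22A5, for carnitine, gave 0.12 ± 0.23 (adjusted p = 0.721) and -0.13 ± 0.20 (adjusted p = 0.679). The non-carriers that share the prefix, SLC7A6OS and SLC4A1AP, gave -0.14 ± 0.25 (adjusted p = 0.721) and 0.10 ± 0.21 (adjusted p = 0.757). The dimmer SLC7A6OS probe set was of the opposite sign, at 0.75, and was not called.

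No overlap between the layers, with all 6 granulosa arrays above all 6 theca arrays, was seen for 12 probe sets, of which SLC6A8 by its dimmer probe set was the 1 not called. Of the 12, SLC25A15, SLC29A2 and that SLC6A8 probe set passed the limit in 1 granulosa group only, so the count follows in part from the choice. No probe set had all granulosa arrays below all theca arrays. Among all tested probe sets 5.1% lay wholly above and 5.22% wholly below. With quantile normalisation the carriers gave 11 above and 1 below, and after median centring 8 and 1.

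Of 51 genes listed as partners of carriers (pump subunits, enzymes, metal-binding proteins and the SLCO family of organic anion carriers), 35 were tested. In the layer comparison 8 were higher and 7 lower in granulosa, against 13.6% and 11.2% of all tested probe sets. The 8 include GATM, which is also on the list of granulosa markers, so nothing is read from its part of the count. The list had no common direction, and it was chosen with earlier results of these data known. Carbonic anhydrases split, with CA2 higher (2.13, adjusted p = 0.00169) and CA4 lower (-1.65, adjusted p = 0.000924). SLCO carriers split too: SLCO3A1 was higher (1.38, adjusted p = 0.000707) and SLCO2A1, which takes up prostaglandins, lower (-1.55, adjusted p = 0.000365). The sodium pump subunit ATP1B1 (0.85, adjusted p = 0.00894) and the chloride exchanger CLCN3 (0.69, adjusted p = 0.00844) were higher. Glutamine synthetase, GLUL (-1.07, adjusted p = 0.00649), UCP2, a mitochondrial carrier whose symbol lacks the prefix (-1.13, adjusted p = 0.00206) and the pump regulator FXYD1 (-0.88, adjusted p = 0.047) were lower. For UCP2 this held in small (-2.35, adjusted p = 0.00172) and medium follicles (-2.48, adjusted p = 0.00104), while in large follicles it was higher in granulosa (1.44, adjusted p = 0.0444).

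Within single sizes fewer carriers were called. In small follicles 12 passed, 11 higher and 1 lower in granulosa, 9.23% against 9.14% of all tested probe sets (4.06% higher and 5.08% lower). Of the 12, SLC25A15 and SLC29A2 passed the signal limit in small granulosa only, so nothing is read from their part of the count. The largest differences were those of SLC17A5 (3.34 ± 0.75, adjusted p = 0.0149), SLC25A17 (1.95 ± 0.45, adjusted p = 0.0168), SLC43A2 (1.88 ± 0.32, adjusted p = 0.00283), SLC35A4 (1.75 ± 0.39, adjusted p = 0.0141) and, lower, SLC5A11 (-1.89 ± 0.34, adjusted p = 0.00405). SLC43A2 and SLC5A11 kept their calls when any of the 12 arrays was left out; the other 10 did not. The count rose without theca small replicate 2 and fell without theca small replicate 1 or either small granulosa array. It also fell without theca medium or large arrays, which share in the estimate of the spread. The share of all probe sets called in these fits is not given here.

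In medium follicles 9 passed, all higher in granulosa, 6.92% against 6% of all tested (1.79% higher and 4.21% lower). They were led by SLC39A8 (2.88 ± 0.66, adjusted p = 0.0182), SLC17A5 (2.70 ± 0.75, adjusted p = 0.0497) and both SLC35G1 probe sets (2.04 ± 0.46, adjusted p = 0.016 and 2.08 ± 0.46, adjusted p = 0.0143), with both SLC2A5 probe sets, SLC16A3, SLC25A28 and SLC43A2 as the rest. Leaving out either medium granulosa array or theca medium replicate 1 left 3 calls, and leaving out theca medium replicate 2 left 0.

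In large follicles 7 passed, 6 higher and 1 lower, 5.38% against 4.41% of all tested (2.02% higher and 2.39% lower). SLC2A5 differed by 2.47 ± 0.30 (adjusted p = 0.000434) and 2.22 ± 0.33 (adjusted p = 0.00192), the SLC35G1 dimmer probe set by 2.18 ± 0.46 (adjusted p = 0.0169), and SLC5A11 by -1.39 ± 0.34 (adjusted p = 0.037). SLC7A7 (1.93 ± 0.48, adjusted p = 0.0371), SLC37A2, a sugar phosphate carrier of the ER (1.53 ± 0.40, adjusted p = 0.0478), and SLC4A11, a carrier of the bicarbonate family (1.51 ± 0.40, adjusted p = 0.0482), were also called. SLC37A2, SLC4A11 and the dimmer SLC2A5 probe set passed the signal limit in large granulosa only, so nothing is read from their part of the count, and with members taken by their mean over all arrays 3 were called, 2 higher and 1 lower. SLC7A7, SLC37A2 and SLC4A11 were not called without granulosa large replicate 1, the array with the highest myeloid marker sum and actin ratio, nor without either small granulosa array. Both SLC2A5 probe sets kept their calls when any array was left out. The count was 3 without granulosa large replicate 1, theca large replicate 1 or either theca medium array, 2 without theca large replicate 2, and 4 without either small granulosa array.

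Few carriers passed the test between follicle sizes. In granulosa 3 of 130 probe sets were higher in large than in small follicles and 0 lower, 2.31% against 2.22% of all tested (1.82% higher and 0.4% lower). The 3 were both SLC2A5 probe sets and the dimmer SLC35G1 probe set. The dimmer SLC2A5 probe set was a member through large granulosa only, and with members taken by their mean over all arrays 1 was called. At an unadjusted p under 0.05 there were 21, 15 higher and 6 lower, against 14.4% of all tested. Without granulosa large replicate 1 the count was 0 and without replicate 2 it was 7; without either small granulosa array it was 1, and without either small theca array 5. From small to medium 0 passed (0.0058% of all tested; 9 carriers, against 3.37% of all tested, at an unadjusted p under 0.05 in limma), and from medium to large 1 did, SLC2A5 by its brighter probe set (0.769% against 0.679%). That last count was 5 without granulosa large replicate 2 and 0 without large replicate 1 or any medium granulosa, medium theca or large theca array.

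SLC2A5 was 5.97-fold higher in large than in small granulosa, by 2.58 ± 0.30 (adjusted p = 0.00311), and 2.17 ± 0.33 (adjusted p = 0.00587) by the dimmer probe set. Medium granulosa lay between, 0.97 ± 0.30 (adjusted p = 0.973) above small and 1.61 ± 0.30 (adjusted p = 0.0315) below large. The large replicates were close, 251 and 244, with myeloid marker sums of 17614 and 6724; the part of myeloid cells in the SLC2A5 signal was not tested. Without large replicate 1 the change was 2.56 with an adjusted p of 0.0584. In theca the change from small to large was 0.62 ± 0.30 (adjusted p = 0.498). The difference between the layers in this change was 1.96 ± 0.42 (adjusted p = 0.127), so it did not pass.

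The dimmer SLC35G1 probe set read 59.7 and 48.3 in small, 361 and 162 in medium and 428 and 165 in large granulosa, low in small follicles only, and rose by 2.02 ± 0.46 (adjusted p = 0.0352) from small to large. Its brighter probe set gave 0.88 ± 0.46 (adjusted p = 0.401) for the same step, and 1.97 ± 0.46 (adjusted p = 0.372) from small to medium. In theca the brighter probe set had the largest size difference of any carrier, 2.06 ± 0.46 (adjusted p = 0.158), with 43.1 and 71.0 in small and 203 and 390 in large, and the dimmer 0.41 ± 0.46 (adjusted p = 0.791).

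**Figure D3:**
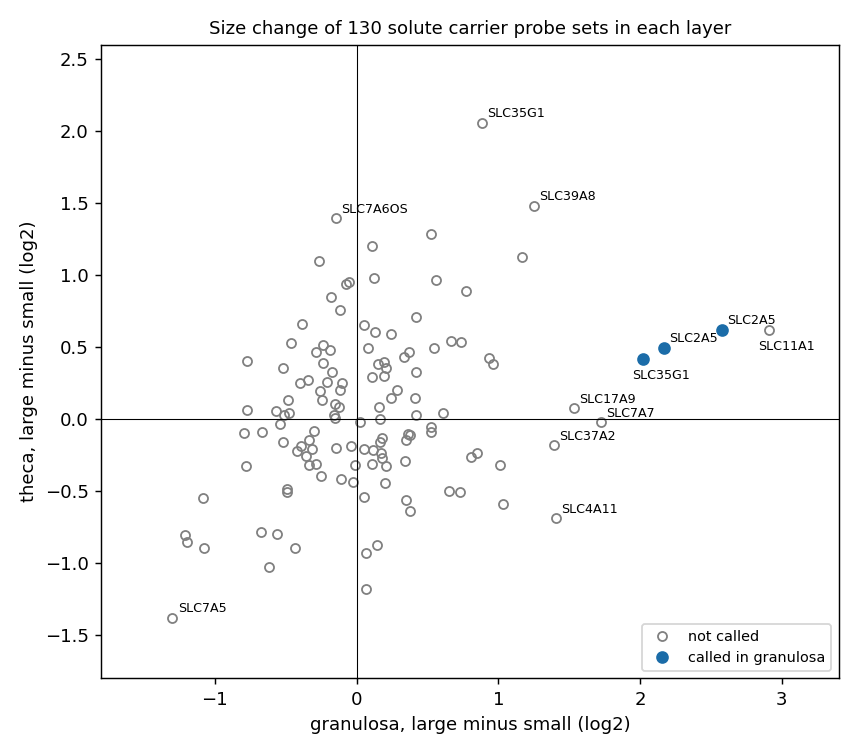
Log2 difference between large and small follicles in granulosa (x axis) and theca (y axis) for the 130 carrier probe sets; filled points were called in granulosa and none was called in theca. The 2 SLC2A5 points and the dimmer SLC35G1 point lie at the right with theca differences below 0.7, and the brighter SLC35G1 point lies at the top.

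Several larger differences in granulosa did not pass. SLC11A1 (NRAMP1), a metal carrier of phagosomes known from macrophages, gave 2.91 ± 0.73 (adjusted p = 0.0544). Its signal was 859 on large replicate 1 and 85.0 on replicate 2, against 5.00 to 29.4 in the other granulosa groups. SLC11A1, SLC37A2 and SLC4A11 passed the limit in large granulosa only, so their values here follow in part from the choice. SLC7A7 (1.72 ± 0.48, adjusted p = 0.0839), SLC37A2 (1.39 ± 0.40, adjusted p = 0.0984) and SLC4A11 (1.41 ± 0.40, adjusted p = 0.0919) were likewise highest on large replicate 1. All 12 tested myeloid markers were called higher in large than in small granulosa, with a median of 3.67, and their sum on large replicate 1 was above that on replicate 2, as were the signals of these 4 carriers. That array also had the actin ratio of 21.0. The part of myeloid cells, or of RNA quality, in these values was not tested. SLC2A6 gave 1.04 ± 0.33 (adjusted p = 0.133) in granulosa and -0.59 ± 0.33 (adjusted p = 0.563) in theca.

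On the lower side, SLC30A2 gave -1.21 ± 0.32 (adjusted p = 0.0718), with 69.7 and 83.8 in small and 25.8 and 22.2 in large granulosa; as it passed the limit in small granulosa only, this follows in part from the choice. SLC38A2 gave -1.19 ± 0.35 (adjusted p = 0.098), from 2801 and 1663 to 982 and 889.5, so that large lay below small on every array. SLC7A1 gave -1.09 ± 0.35 (adjusted p = 0.143), SLC43A1 (LAT3) -1.08 ± 0.32 (adjusted p = 0.101) and SLC7A5 -1.30 ± 0.55 (adjusted p = 0.288). In theca the same genes gave -0.86 ± 0.35 (adjusted p = 0.425) for SLC38A2, -0.55 ± 0.35 (adjusted p = 0.618) for SLC7A1, -0.90 ± 0.32 (adjusted p = 0.368) for SLC43A1 and -1.38 ± 0.55 (adjusted p = 0.42) for SLC7A5. SLC3A2, which pairs with SLC7A5 and SLC7A7, gave 1.01 ± 0.35 (adjusted p = 0.182) in granulosa and -0.32 ± 0.35 (adjusted p = 0.795) in theca.

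By substrate, the large against small differences in granulosa had medians of 0.985 for 8 sugar carrier probe sets (7 genes), 0.67 for 5 carboxylate carrier probe sets (3 genes), -0.18 for 31 mitochondrial carrier probe sets (22 genes) and -0.42 for 13 amino acid carrier probe sets (12 genes), against 0.04 over all tested probe sets. Of the amino acid probe sets 5 of 13 were above 0, of the carboxylate probe sets 5 of 5, and of the sugar probe sets 6 of 8, against 52.9% of all tested; probe sets of 1 gene are not independent. The sugar carriers include 2 probe sets, SLC37A2 and the dimmer SLC2A5, that passed the limit in large granulosa alone. In theca the medians were -0.07 for sugars, -0.29 for carboxylates, 0.135 for mitochondrial and -0.32 for amino acid carriers, against -0.04 over all probe sets, and 2 of the 13 amino acid probe sets were above 0, against 46.5% of all tested. Limma called 0 amino acid or carboxylate carriers between large and small in either layer. At an unadjusted p under 0.05, which 14.4% of all tested probe sets had in granulosa, 5 of 8 sugar probe sets and 1 of 5 carboxylate probe sets were higher, and of 13 amino acid probe sets 2 were higher and 5 lower. The 5 sugar probe sets include SLC37A2 and the dimmer SLC2A5, so that count follows in part from the choice. In theca, where 10.2% of all tested had such a p, 3 amino acid probe sets were lower and 0 sugar or carboxylate probe sets passed.

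**Figure D4:**
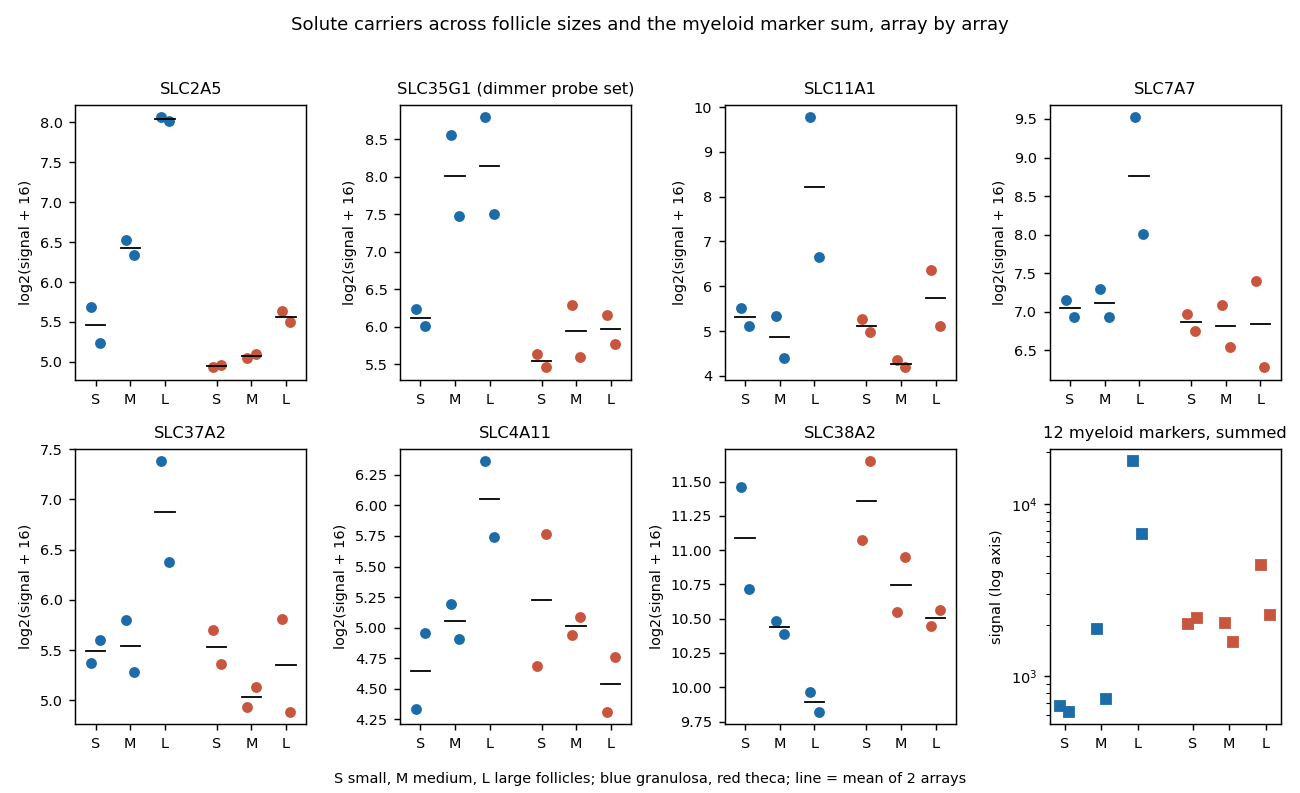
Log2(signal + 16) of 7 carriers on each array (y axes differ between panels), granulosa in blue and theca in red by follicle size with lines at the mean of 2 arrays, and the summed signal of 12 myeloid markers (last panel, log axis). SLC11A1, SLC7A7, SLC37A2 and SLC4A11 are highest on granulosa large replicate 1, as is the marker sum, while the 2 large granulosa points of SLC2A5 nearly coincide.

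In theca 0 carriers passed in limma for large against small (17 at an unadjusted p under 0.05, 8 higher and 9 lower), medium against small (8) or large against medium (3). Among all tested probe sets 0.0348%, 0.0116% and 0% were called, and 10.2%, 6.2% and 3.13% had an unadjusted p under 0.05. Differences above 0 for large against small included, next to SLC35G1, those of SLC39A8 (1.48 ± 0.66, adjusted p = 0.469), with 475 on theca large replicate 2 and 111 on replicate 1, and SLC31A2 (1.29 ± 0.39, adjusted p = 0.322); below 0, beside SLC7A5, were SLC25A5, an ADP/ATP carrier, by its dimmer probe set (-1.18 ± 0.35, adjusted p = 0.311) and the folate carrier SLC19A1 (-1.03 ± 0.35, adjusted p = 0.363). The non-carrier SLC7A6OS gave 1.40 ± 0.48 (adjusted p = 0.363) by its dimmer probe set. The granulosa marker sum was 5496 and 5058 in small and 12576 and 18821 in large theca, and SLC35G1, SLC39A8 and SLC31A2 were called higher in granulosa. Of the 10 granulosa markers, however, 2 were called higher in large than in small theca and 0 lower. Their median change was -0.02, so the sum does not stand for the whole list. The part of granulosa cells in these theca values was not tested. Carriers were called for large and for medium against small only when theca small replicate 2 was left out. Leaving out each of the other 11 arrays gave no call. The share of all probe sets called in that fit is not given here, so nothing is read from it about carriers.

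No carrier passed the test of a difference between the layers in their change from small to large: 0 were called in limma, 15 had an unadjusted p under 0.05 (12 toward granulosa), and of all tested probe sets 0.0116% were called and 10.6% had such an unadjusted p. Without theca small replicate 2 the count was 2, and without granulosa large replicate 2 it was 1. After SLC2A5, the lowest p belonged to SLC4A11 (2.09 ± 0.57, adjusted p = 0.195) and SLC2A6 (1.63 ± 0.46, adjusted p = 0.218), and SLC11A1 gave 2.29 ± 1.03 (adjusted p = 0.452). From the partner list 3 of 35 genes tested were higher in large than in small granulosa, against 1.82% of all tested probe sets. As the list was chosen with earlier results of these data known, nothing is read from this count. The 3 genes were FOLR2, a folate receptor (3.365, adjusted p = 0.00639), UCP2 (2.89, adjusted p = 0.00398) and CKB (1.82, adjusted p = 0.0365). In large granulosa FOLR2 read 1243 and 373, UCP2 214 and 94.7, and CKB 466 and 269, each highest on replicate 1, as was the sum of the myeloid markers, whose part was not tested. UCP2 also differed between the layers in this change (3.79, adjusted p = 0.0419), and no partner gene was called between sizes in theca.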

How the data were processed

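The deposited table held linear signal intensities for every probe set on 12 arrays. The authors had scaled them to a 2% trimmed mean of 125.03 to 125.04; with which software is not given in the sources used here. Symbols came from the platform table, and all 250 carrier probe sets had an Entrez identifier found in the RefSeq gene table, with 0 symbols changed. A limma model (version 3.58.1, R 4.3.3) with 1 mean per group was fitted to log2(signal + 16) of the 17236 probe sets with a group mean above a signal of 22.5, the 40th percentile overall. The offset understates folds of dim probe sets. It had 6 residual degrees of freedom, 7.92 prior ones and a prior SD of 0.376. The Benjamini-Hochberg adjusted p was taken over all tested probe sets of each of 11 contrasts, with 0.05 as the threshold. Between 2 groups of 2 arrays an exact permutation test cannot give a p below 0.333. That limit does not apply to granulosa against theca over all sizes, which uses all 12 arrays. The p-values measure the spread between pools. Columns without a sample numbered 0.

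Carriers, substrate classes, partner and marker lists were chosen with earlier results of these data known, and the classes of 6 symbols were set after the symbols or values had been seen. Named by rule were up to 10 called members per direction over all sizes and for large against small, up to 5 elsewhere, the 2 of highest mean signal in each substrate class, and the 3 nearest the limit on each side; other members were named with their values in view. The fit was tested on simulated data. Alternatives were other offsets (1 and 64), scalings, filters, a trended prior, a replicate block, other member choices, leaving out each array, and leaving out both arrays that stand apart. The main fit did not pair samples by replicate number, as the titles do not say whether arrays with the same number shared follicles or animals. Plots used matplotlib 3.10.9 (Python 3.11.15).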

Additional observations from a re-analysis of the deposited data

How the results depend on the processing

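The number of carriers called over all sizes stayed within 1.5 times of 38 under every alternative other than leaving out arrays, and 21 of the 38 calls were kept under all alternatives to the fit. No named call changed sign under any alternative. In small follicles the count of 12 became 5 with an offset of 1, 7 with an offset of 64 and 5 without both arrays that stand apart. In medium follicles the count of 9 became 3 with an offset of 1 and 16 without both arrays. In large follicles the count of 7 became 2 with an offset of 1, 4 with no filter on dim probe sets, 3 with members chosen by their mean over all arrays and 4 without both arrays. For large against small granulosa the count of 3 became 6 after median centring, 1 with members chosen by their mean and 1 with a single probe set per gene. For large against medium granulosa the count of 1 became 2 with a trended prior and 0 with an offset of 1, with members chosen by their mean or without both arrays. Leaving out each array gave 24 to 44 calls over all sizes, 2 to 23 in small, 0 to 12 in medium and 2 to 10 in large follicles. It gave 0 to 7 for large against small and 0 to 5 for large against medium granulosa, 0 to 7 for large against small and 0 to 2 for medium against small theca, and 0 to 2 for the difference between layers. With the lone array of a group kept, its spread was assumed to be that of the other groups. The share of all probe sets called in each such fit is not given here, so these counts are not read as results about carriers. With the replicate number as a block, the counts were 39 over all sizes, 11, 8 and 7 within small, medium and large follicles, 5 for large against small and 2 for large against medium granulosa, and 0 for the other size contrasts; deviations of arrays with the same number correlated at -0.335 to 0.40, above 0.1 in 6 of 15 pairs of groups. The causes were not tested. Probe sets below a signal of 48 in all groups, 2 arrays per group and pooled animals limit what could be detected.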
